A study of Rattus norvegicus with 5 samples.

Results

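Collagens are the main structural proteins of the vessel wall, and each collagen molecule is a triple helix whose chains come from separate genes or from copies of the same chain. The genes described here are the collagen chain genes measured in cultured smooth muscle cells from rat vessels. They were chosen by symbol: of 17048 rows in the deposited tables, 27 carried a collagen chain symbol, and the 25 of them with a value above 0 in at least 1 library were kept. The other 2, Col26a1 and Col6a4, had a value of 0 in all 5 libraries. A value of 0 does not exclude a level under the floor of 3 reads set here (at most 3.29 adjusted reads, in the E2 library). Each kept symbol had 1 row. Further chains, among them Col4a2, Col6a1, Col6a3 and Col12a1, had no row under these symbols and could not be analysed.

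The study has 5 RNA libraries, 1 for each condition: an untreated control, hypoxia for 24 h, and 24 h of hypoxia after pretreatment with In-Cl at 0.1 µM, DPN at 0.1 µM or E2 at 10 nM. All cells were rat smooth muscle cells grown on coated plastic; the labels give no strain, sex, age or vessel for the source animals, and no vehicle for the control. In-Cl is the indazole compound of the series title. E2 is estradiol, and DPN is a synthetic agonist selective for estrogen receptor beta. With 1 library per condition there is no replicate error, so no p-value is given, and every difference below is between 2 libraries.

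Fibrillar collagens (types I, II, III, V and XI, with the minor types XXIV and XXVII) assemble into the cables that bear tension, and in the vessel wall types I and III prevail. Collagen IV forms the sheet of the basement membrane around each cell. FACIT collagens (types IX, XII, XIV and XVI among others) sit on the surface of fibrils, collagen VIII forms an open network in vessels, collagen VI forms beaded filaments, and the multiplexins XV and XVIII carry heparan or chondroitin sulfate near basement membranes. Chains are hydroxylated and folded in the endoplasmic reticulum before export, and the prolyl and lysyl hydroxylases that act on them need oxygen.

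The 25 genes divided into 10 fibrillar, 3 basement membrane, 4 FACIT, 1 network (Col8a1), 1 beaded filament (Col6a2), 2 multiplexin, 3 transmembrane and 1 anchoring fibril (Col7a1). The deposited values are log2(adjusted reads + 1), where adjusted reads behave as read counts scaled library by library (their low values come in equal steps). Their totals still differ between libraries, as given below, and no scaling to equal totals was run. Levels below are adjusted reads, differences are differences of the deposited log2 values, and intervals in parentheses after a difference are 95% intervals of counting error only (exact Clopper-Pearson, from approximate reads). Without molecular identifiers, reads cannot be taken as independent molecules, and the variation between cultures is not covered. Counts of higher and lower genes use a difference of at least 1.5-fold between 2 libraries, among genes with a mean of at least 100 adjusted reads over the 5 libraries. That mean was reached by 16 of the 25 collagen genes and by 8872 rows in all. Col11a2, with a mean of 147, was the lowest gene inside it and Col15a1, with 98.9, the highest outside, and the remaining 8 enter no count. No length per transcript was used, so levels are compared between libraries and not between genes.

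Adjusted reads add up to 20663687 in the control, the lowest total, and 22837695 in hypoxia, the highest. In approximate reads before adjustment the control was the deepest library, with 24800000, and the E2 library the shallowest, with 20200000. The 10 smooth muscle markers checked were all above 0, and their summed level ran from 259048 with In-Cl to 354212 in hypoxia. Single markers went both ways: in hypoxia against control 5 of the 9 with a mean of at least 100 were above 0, and Smtn was at -0.99. Of the markers of other cell types, 5 of 8 for endothelium, 4 of 6 for leukocytes, 3 of 6 for cartilage, 6 of 6 for epithelium, 5 of 5 for bone and 7 of 8 for fibroblasts were above 0 in a library. Those at 0 in every library were Cdh5, Kdr and Emcn of the endothelium, Itgam and Cd3e of leukocytes, Matn1 and Hapln1 of cartilage and Dpt of fibroblasts. Those with a mean of at least 100 were Tek of the endothelium, Cd14 of leukocytes, Sox9 and Acan of cartilage, Krt8 of epithelium and Lum, Scara5 and Pdgfra of fibroblasts. Summed levels were 267 to 470 for endothelial, 214 to 269 for leukocyte, 333 to 486 for cartilage and 43.0 to 52.6 for bone markers. Epithelial markers summed to 223 in the control and 487 to 567 in the hypoxic libraries. Most of that sum was Krt8, with 208 in the control and 531 in hypoxia. In the fibroblast list the sum was 1762 in the control and 1149 to 1280 in the 4 hypoxic libraries. Lum fell from 1214 in the control to 591 in hypoxia. Pdgfra and Scara5 went the other way, from 89.7 to 120 and from 314 to 336. The part of these cells in the results below was not tested.

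Promoters of 4 collagen genes are shown because these genes were among those with the largest differences described below: Col16a1, Col27a1 and Col11a2 in hypoxia against control, and Col8a1 with E2. They are the 250 bases upstream of the annotated start, read 5′ to 3′ on the strand of the gene, from RefSeq (build GRCr8). Capitals mark the core letters of a hypoxia-response element (ACGTG or GCGTG on either strand) and the GC box GGGCGG on either strand. The positions are chr5:147672846-147673095 on the plus strand, chr5:81662658-81662907 on the plus strand, chr20:4817649-4817898 on the minus strand and chr11:56246532-56246781 on the plus strand. Col14a1 has no entry in the sequence table.
Col16a1: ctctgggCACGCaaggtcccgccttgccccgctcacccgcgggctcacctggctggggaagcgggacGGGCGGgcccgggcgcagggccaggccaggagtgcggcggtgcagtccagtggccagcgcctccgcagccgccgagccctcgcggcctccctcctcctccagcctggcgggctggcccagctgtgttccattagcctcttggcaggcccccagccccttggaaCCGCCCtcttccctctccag
Col27a1: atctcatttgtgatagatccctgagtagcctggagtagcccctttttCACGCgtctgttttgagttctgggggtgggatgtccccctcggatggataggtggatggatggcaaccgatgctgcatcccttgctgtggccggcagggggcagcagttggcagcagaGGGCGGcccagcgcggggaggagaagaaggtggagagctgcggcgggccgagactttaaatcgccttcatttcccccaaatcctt
Col11a2: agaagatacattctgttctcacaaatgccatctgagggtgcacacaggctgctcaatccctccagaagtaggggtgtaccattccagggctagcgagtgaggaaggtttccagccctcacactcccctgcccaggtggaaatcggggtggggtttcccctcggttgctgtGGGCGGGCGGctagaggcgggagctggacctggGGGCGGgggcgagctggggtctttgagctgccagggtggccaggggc
Col8a1: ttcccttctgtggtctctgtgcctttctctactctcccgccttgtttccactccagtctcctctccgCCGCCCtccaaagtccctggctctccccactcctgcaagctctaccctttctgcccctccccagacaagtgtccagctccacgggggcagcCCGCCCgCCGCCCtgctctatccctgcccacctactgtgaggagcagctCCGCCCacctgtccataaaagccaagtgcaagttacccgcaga

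Of the 25 genes, 20 had an entry in the table. A hypoxia-response core was found in 8 of these 20 and in 36.7% of all 33469 promoters in windows of the same length. Col16a1 and Col27a1 each held 1 such core and Col11a2 and Col8a1 held 0. The GC box was found in 12 of 20 collagen promoters against 30.5% of all promoters, with 2 copies in Col16a1, 1 in Col27a1, 3 in Col11a2 and 4 in Col8a1. In the Col11a2 window, 2 of the 3 copies overlap. The CCAAT box (CCAAT on either strand) was in 5 of 20 against 34.0% of all. A full estrogen response element (GGTCA and TGACC with 3 bases between them) was in 0 of 20 against 0.0239% of all. These are matches of letters in 1 window and not binding sites.

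The 25 collagen genes made up 4.08% of all adjusted reads in the control library (95% Wilson interval 4.07% to 4.08%) and 4.35% under hypoxia alone (4.34% to 4.36%). Their share was 4.73% after In-Cl (4.72% to 4.74%), 4.26% after DPN (4.25% to 4.27%) and 4.39% after E2 (4.38% to 4.40%). Chains without a row are not in these shares. The control had the smallest share and In-Cl the largest. The 2 chains of collagen I accounted for most of the reads of these 25 genes, from 76.4% with E2 to 78.7% in hypoxia. These are shares of reads, to which long messages contribute more.

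**Figure D1:**
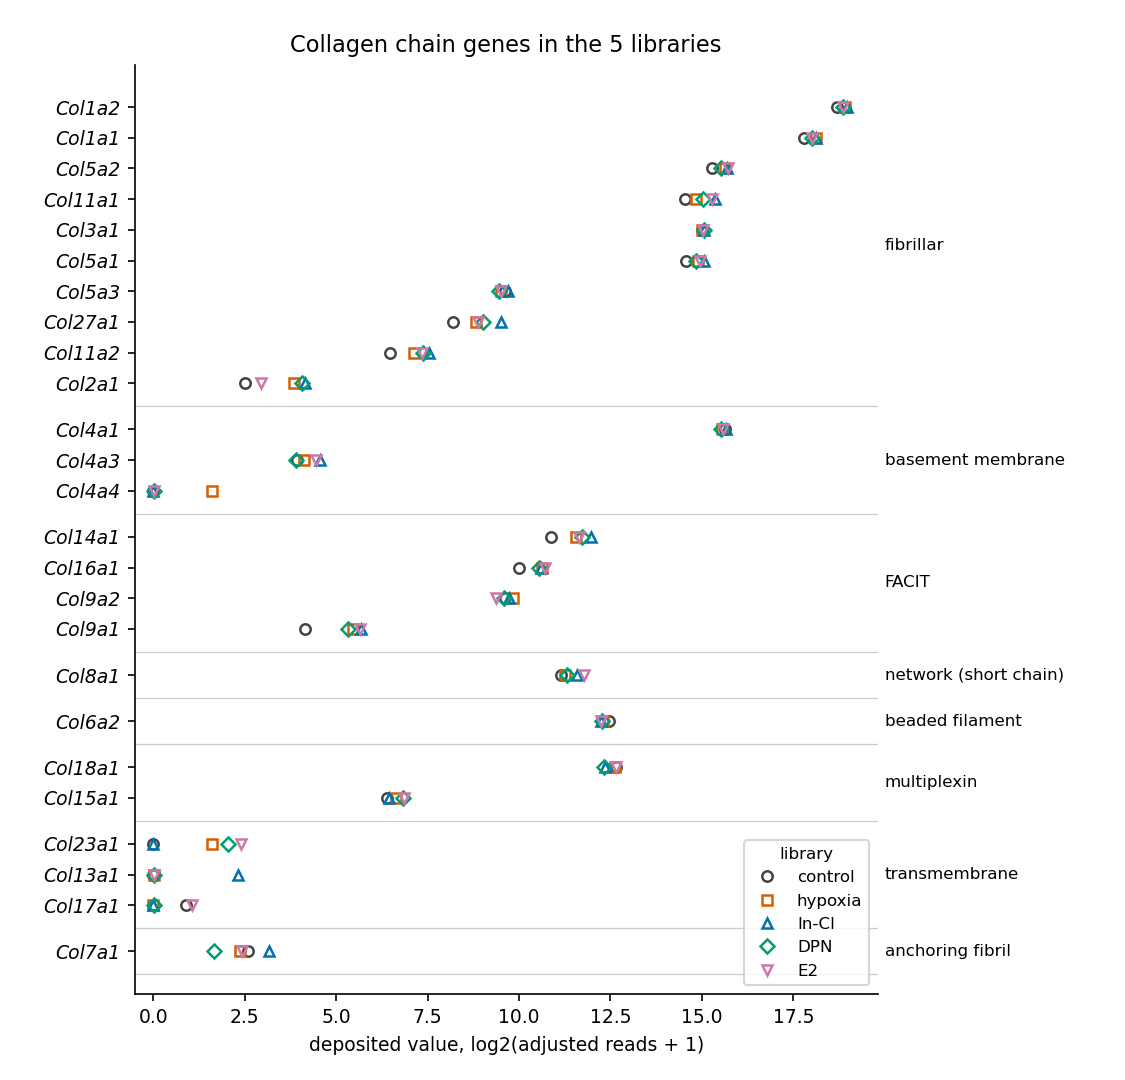
Deposited values, log2(adjusted reads + 1), on the horizontal axis for the 25 collagen chain genes listed by class on the vertical axis, with 1 symbol per library. For most of the 16 genes with a mean of at least 100 the symbols lie close together, and the control symbol stands to the left for Col14a1, Col16a1, Col27a1, Col11a2 and Col9a1.

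Hypoxia against control asks what 24 h of low oxygen does to these messages. Among the 16 genes with the required mean, the FACIT chains Col14a1 and Col16a1 and the fibrillar chains Col27a1 and Col11a2 differed most and were each 1.54-fold to 1.59-fold higher in hypoxia. The fibrillar chains Col1a1, Col1a2, Col5a1, Col5a2 and Col11a1 and the FACIT chain Col9a2 were 1.17-fold to 1.28-fold higher as deposited, and collagens III, IV, VIII and XVIII lay within 1.07-fold of the control in either direction. Col5a3 and Col6a2 were at -0.11 and -0.18 on the log2 scale. The count of genes 1.5-fold higher was 4 of 16, where 5.66% of all rows with this mean were, and 0 were at least 1.5-fold lower, where 4.44% of all rows were. The median difference was 0.26 over the 16 genes and -0.04 over all 8872 rows. It was 0.07 after quantile normalization, which gives all libraries the same values and keeps each gene's rank in its own library. Of the 16 genes 12 lay above 0 and 4 below, against 44.3% and 55.6% of all rows. For 4 of the 16, Col1a1, Col1a2, Col3a1 and Col18a1, the sign was not kept after median centring or quantile normalization. In bulk RNA more message per cell and more cells that make it cannot be told apart.

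Among the FACIT collagens, Col14a1 encodes a chain that decorates fibrils and is known from tissues under tension. Col14a1 had 1876 adjusted reads in the control library and 2989 under hypoxia alone, then 4019 after In-Cl, 3396 after DPN and 3204 after E2. The control was the lowest of the 5 libraries. It was also the lowest for Col3a1, whose libraries were nearly level. The share of all rows with the control lowest or highest was not counted. For Col14a1 the difference between hypoxia and control was 0.67 (0.59 to 0.75).

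Col16a1 encodes a FACIT chain found beside fibrils and near cell adhesion sites. Its level was 1025 in the control library and 1580 under hypoxia alone, then 1549 after In-Cl, 1496 after DPN and 1661 after E2, so the control again lay below all hypoxic libraries, which were close to each other. The difference in hypoxia was 0.62 (0.52 to 0.73).

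Collagen IX, the FACIT partner of cartilage fibrils, gave a mixed picture. Col9a2 had 784 in the control library and 920 under hypoxia alone, then 848 after In-Cl, 776 after DPN and 666 after E2, with the control inside the hypoxic range and a difference of 0.23 (0.10 to 0.36). Col9a1, under the mean used for counting, had 16.9 in the control and 43.4 in hypoxia, on about 20 and 42 reads (difference 1.31, 0.58 to 2.23). After In-Cl it had 50.3, after DPN 39.2 and after E2 49.2, so the control was the lowest library.

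Of the 9 fibrillar genes with the required mean, 2 were at least 1.5-fold higher, where 5.66% of all rows were, and the median was 0.32. Col27a1 encodes a chain of fibrils known from cartilage. It had 293 in the control library and 451 under hypoxia alone, then 730 after In-Cl, 512 after DPN and 470 after E2. The control was lowest and In-Cl stood apart on the high side, and hypoxia against control gave 0.62 (0.42 to 0.83).

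Col11a2 and Col11a1 encode chains of collagen XI, which nucleates thin fibrils. Col11a2 had 88.4 in the control library and 138 under hypoxia alone, then 184 after In-Cl, 165 after DPN and 161 after E2. The control lay below the others, and its difference of 0.64 had a wide interval (0.27 to 1.029) on about 106 and 134 reads; after quantile normalization it was 0.54, under 1.5-fold. Col11a1 had 23804 in the control library and 29104 under hypoxia alone, then 41967 after In-Cl, 33548 after DPN and 39511 after E2. Its difference in hypoxia was 0.29 (0.27 to 0.31) as deposited and 0.06 after quantile normalization. Collagens II, IX and XI are best known from cartilage. Of 6 cartilage markers 3 were above 0, and their summed level was 486 in the control and 442 in hypoxia. Acan, the large cartilage proteoglycan, had 205 and 137, the transcription factor Sox9 had 267 and 296, and Matn3 had 13.4 and 8.34.

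Collagen I, the main fibril protein of the wall, is built from alpha 1 and alpha 2 chains. Col1a1 had 227577 in the control library and 284288 under hypoxia alone, then 284880 after In-Cl, 264149 after DPN and 263053 after E2. Col1a2 had 424086 in the control library and 497728 under hypoxia alone, then 507482 after In-Cl, 471532 after DPN and 478778 after E2. The control was the lowest library for both chains. As a share of all adjusted reads, collagen I was 3.15% in the control and 3.42% in hypoxia, where the total was larger. Hypoxia exceeded the control by 0.32 (0.31 to 0.33) for Col1a1 and by 0.23 (0.23 to 0.24) for Col1a2 as deposited. After quantile normalization the same differences were -0.045 and 0.00. The normalized values reflect the rank of each gene in its library, so they cannot check a difference in level. As deposited, the difference of the alpha 1 chain exceeded that of the alpha 2 chain by 0.09 (0.08 to 0.10); with quantile normalization it was the smaller.

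Collagen V sits inside collagen I fibrils and limits their width. Col5a1 had 24120 in the control library and 30658 under hypoxia alone, then 34253 after In-Cl, 29064 after DPN and 31541 after E2, a difference of 0.35 (0.32 to 0.37) in hypoxia. Col5a2 had 39924, 51062, 53157, 46792 and 53787 in the same order, a difference of 0.36 (0.34 to 0.37). After quantile normalization these differences were 0.12 for Col5a1 and 0.09 for Col5a2. The differences of the 2 chains agreed within counting error, being apart by -0.01 (-0.04 to 0.02). Col5a3, which replaces other chains in some collagen V molecules, had 779 in the control library and 723 under hypoxia alone, then 827 after In-Cl, 696 after DPN and 733 after E2. The control lay inside the range of the hypoxic libraries, and the hypoxia difference of -0.11 was not detectable at this depth (-0.25 to 0.03).

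Collagen III forms fine, extensible fibrils together with collagen I. Col3a1 had 32608 in the control library and 32767 under hypoxia alone, then 34301 after In-Cl, 33829 after DPN and 33432 after E2, so the 5 libraries were nearly level, and the hypoxia difference was 0.01 (-0.01 to 0.03) as deposited and -0.24 after quantile normalization. Col3a1 and Col5a2 are next to each other on chromosome 9, as neighbours in the RefSeq gene order (GRCr8). The hypoxia difference of Col5a2 exceeded that of Col3a1 by 0.35 (0.32 to 0.38). Col2a1, the chain of collagen II, was at 4.68 in the control library and 13.4 under hypoxia alone, then 16.8 after In-Cl, 15.8 after DPN and 6.76 after E2, on about 6 to 17 reads.

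Outside the fibrils no gene with the required mean was 1.5-fold apart between hypoxia and control, apart from the FACIT chains above. Col4a1, a chain of the common basement membrane collagen, had 50710 in the control library and 47544 under hypoxia alone, then 51489 after In-Cl, 47117 after DPN and 48543 after E2. The control lay inside the hypoxic range, and hypoxia was lower by a difference of -0.09 (-0.11 to -0.08), or -0.03 after median centring and -0.35 after quantile normalization. Col4a3, a chain of specialised basement membranes, ran from 13.9 with DPN to 22.7 with In-Cl. Its control level was 14.1 and its hypoxia level 16.5, and E2 gave 20.8. Its partner Col4a4 had about 2 reads in hypoxia and 0 in the other 4 libraries.

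Col6a2 encodes a chain of the beaded filaments that link cells to fibrils. It had 5657 in the control library and 5007 under hypoxia alone, then 4826 after In-Cl, 4894 after DPN and 4793 after E2. Here the control was the highest library, with a hypoxia difference of -0.18 (-0.23 to -0.12). Col8a1, of the network collagen VIII that smooth muscle cells make during remodelling, had 2281 in the control library and 2429 under hypoxia alone, then 3060 after In-Cl, 2550 after DPN and 3528 after E2. Hypoxia and control were close, with a difference of 0.09 (0.01 to 0.17), and the In-Cl and E2 libraries stood above both.

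Col18a1 encodes the multiplexin whose end fragment is endostatin. It had 6413 in the control library and 6342 under hypoxia alone, then 5202 after In-Cl, 5073 after DPN and 6480 after E2, so the libraries fell into a higher set of 3 and a lower pair, In-Cl and DPN. Its hypoxia difference was -0.02 (-0.06 to 0.03) as deposited and 0.05 after median centring. The other multiplexin, Col15a1, ranged from 83.0 in the control to 114 with E2.

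The transmembrane collagens were at the limit of detection. Col23a1 had about 2 reads in hypoxia, 3 with DPN, 4 with E2 and 0 in the control and with In-Cl. Col13a1 had 4 reads with In-Cl and 0 elsewhere, and Col17a1 had 1 read in the control and 1 with E2. Col7a1, of the anchoring fibrils under epithelia, had between 2 and 8 reads. Its level was 5.06 in the control library and 4.14 under hypoxia alone, then 7.91 after In-Cl, 2.18 after DPN and 4.42 after E2. No fold is given for these genes.

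**Figure D2:**
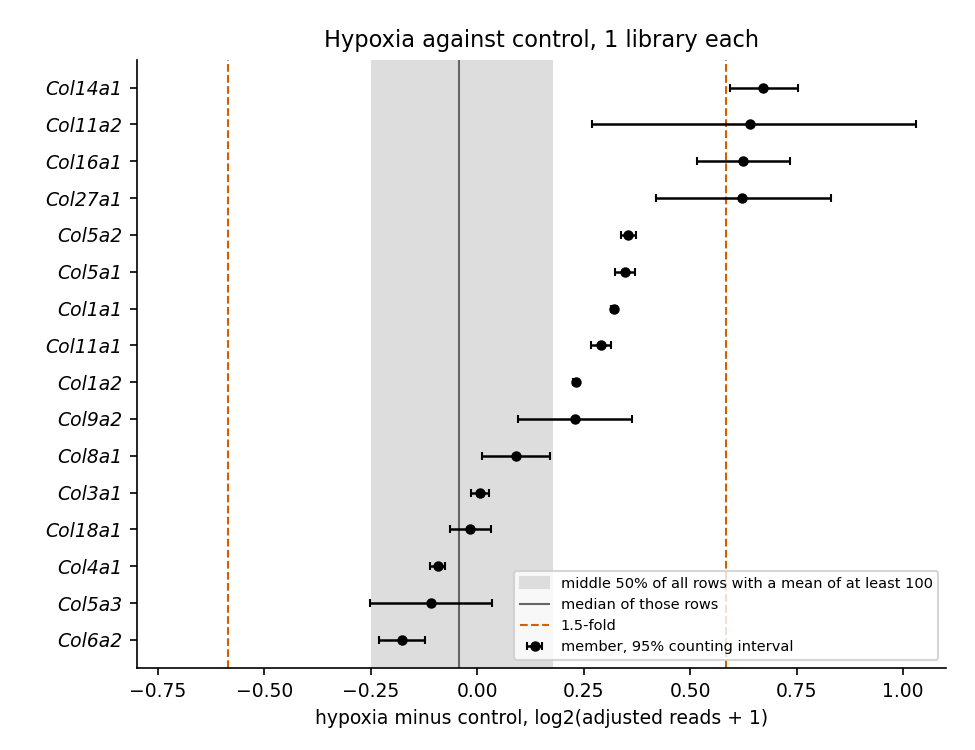
Difference between the hypoxia and control libraries (horizontal axis, log2 scale) for the 16 collagen chain genes with a mean of at least 100 adjusted reads, with 95% counting intervals. The grey band spans the middle 50% of all 8872 rows, the grey line is their median, and dashed lines mark 1.5-fold; Col14a1, Col11a2, Col16a1 and Col27a1 lie beyond it and Col6a2 is lowest at -0.18.

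The genes that process the chains were taken from lists by step. Of 16 measured genes of collagen folding and modification, 5 were higher in hypoxia by 1.5-fold or more (5.66% of all rows) and 0 lower (4.44%): the prolyl hydroxylase subunits P4ha2 (3.02, 2.95 to 3.10), P4ha1 (1.95) and P4hb (0.98) and the lysyl hydroxylases Plod1 (2.01) and Plod2 (0.63). The list as a whole had a median of -0.04, and the collagen chaperone Serpinh1 was at -0.26 (-0.28 to -0.24). Among 9 genes of propeptide removal and cross-linking, 3 were higher and 0 lower: the cross-linking enzymes Loxl2 (2.34) and Lox (0.80), and Adamts2 (0.60), which cuts off the amino-terminal propeptide. Of 7 genes of procollagen export 0 passed 1.5-fold in either direction, with a median of -0.16. The lowest was Sec24d (-0.40), of the vesicle coat, and the highest Sec16a (0.09).

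The counts of the next 4 lists are small and are to be read against the same shares of all rows, 5.66% higher and 4.44% lower. The list medians in hypoxia against control were 0.29 for fibril partners, 0.19 for receptors, -0.32 for breakdown genes and 0.08 for regulators. The median of all rows was -0.04. Around the fibrils, 1 of 7 measured partner genes was lower, the proteoglycan Lum (-1.04), and 0 were higher. Among 6 collagen receptors 1 was higher, the integrin chain Itga11 (1.34, 1.21 to 1.48), which binds fibrillar collagen, and 0 were lower. In the breakdown list of 8 genes, Timp3, an inhibitor of matrix proteases, was higher (1.08) and Ctsk, a collagen-cutting cathepsin, was lower (-1.42, -1.69 to -1.18). Of 17 regulators 3 were higher, namely Smad7 (0.77), Smad3 (0.75) and the matricellular growth factor Ctgf (0.64), and 1 was lower, the growth factor Tgfb1 (-0.59). Smad3 carries the signal of TGF-beta and Smad7 inhibits it.

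The 3 ligand libraries are each set against the same hypoxia library, so that library enters all 3 differences. The In-Cl library addresses what the indazole adds to low oxygen. Collagen XI, XXVII, XIV and VIII chains stood above hypoxia and collagen XVIII below. Col27a1 was 1.62-fold higher (0.69, 0.52 to 0.87), and it was the 1 gene of 16 at least 1.5-fold higher, where 1.78% of all rows were. None of the 16 was at least 1.5-fold lower, where 0.586% of all rows were. Col11a1 lay just under the threshold at 1.44-fold (0.53, 0.51 to 0.55) and above it at 0.69 after quantile normalization. Col14a1 was at 0.43 (0.36 to 0.50), Col11a2 at 0.41 (0.08 to 0.74) and Col8a1 at 0.33 (0.26 to 0.41). As deposited, the chains of collagen I were close to hypoxia, Col1a1 at 0.00 (-0.0045 to 0.0105) and Col1a2 at 0.03 (0.02 to 0.03). Col1a1 was at -0.02 after median centring, and these chains were at 0.09 and 0.11 after quantile normalization. As a share of all adjusted reads collagen I was higher with In-Cl, 3.64% against 3.42% in hypoxia. The total of adjusted reads was lower with In-Cl, 21763657 against 22837695. Col18a1 was at -0.29 (-0.34 to -0.23).

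Over the 16 genes the In-Cl median was 0.09, against -0.01 for all rows, with 12 genes above 0 (49.1% of all rows) and 4 below (50.8%). It was 0.20 after quantile normalization and 0.02 relative to genes of similar genomic span. In that library 10 of the 16 genes had their highest level of the 5 libraries, where 22.9% of all rows did (E2 had 4, hypoxia 1, the control 1 and DPN 0; E2 was given at another dose).

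The In-Cl difference varied with gene size across all rows. Collagen genes are long: the 16 had a median genomic span of 81.5 kb (RefSeq, GRCr8), against 23.3 kb for all rows, and 9 of them were in the longest quartile. In that quartile the median In-Cl difference of all rows was 0.14, and in the shortest quartile it was -0.14. For the longest quartile the median of the 9 collagen genes was 0.16. Relative to the median of their own quartile, 9 of 16 collagen genes lay above 0, Col27a1 was at 0.56 (below 1.5-fold), Col11a1 at 0.39, Col14a1 at 0.29, Col8a1 at 0.20 and Col18a1 at -0.42. The summed smooth muscle markers were also lowest with In-Cl. Of the 9 with a mean of at least 100, 2 lay above hypoxia, Mylk (0.39) and Myh11 (0.02). The part of these markers in the result was not tested.

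**Figure D3:**
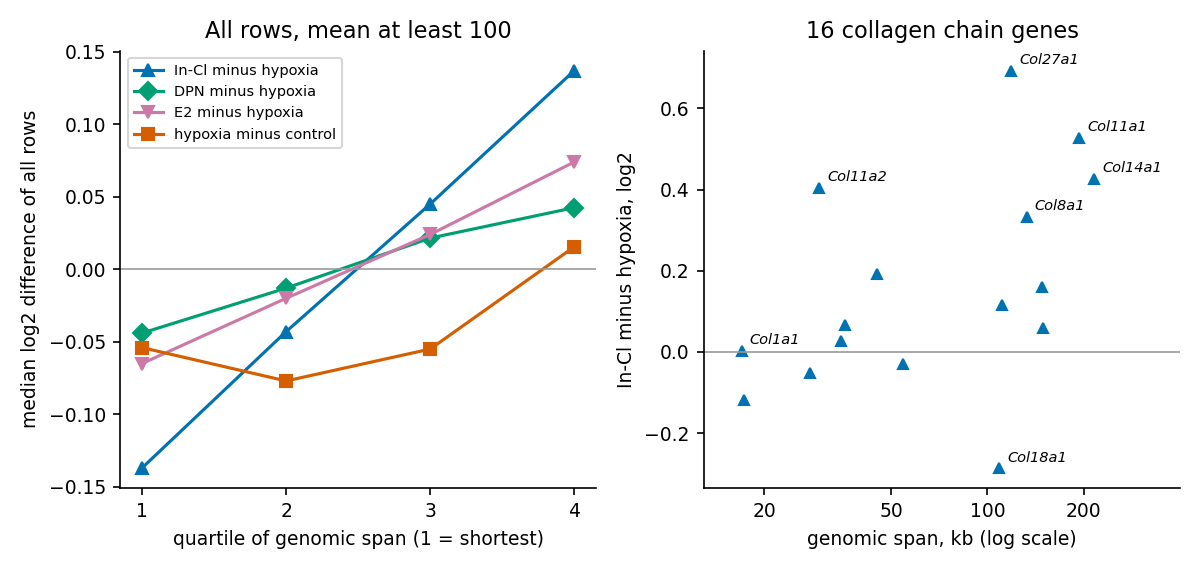
Left, the median log2 difference of all rows (vertical axis) in each quartile of genomic span for 4 comparisons; the In-Cl line climbs from -0.14 to 0.14. Right, the In-Cl minus hypoxia difference of the 16 collagen chain genes against their genomic span on a log axis, 1 point per gene; Col27a1 is highest at 0.69 and Col18a1 lowest at -0.29.

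The beta-selective ligand DPN gave a library close to hypoxia for the collagens: 0 of 16 were at least 1.5-fold higher (0.428% of all rows) and 0 at least 1.5-fold lower (0.406%), with a median of -0.04 against 0.00 for all rows. Above 0 were 6 of the 16 (50.2% of all rows) and below 0 were 10 (49.5%). For 4 of the 16, Col1a1, Col1a2, Col4a1 and Col6a2, the sign was not kept after median centring or quantile normalization. Col18a1 differed most at -0.32 (-0.38 to -0.27), and the next below hypoxia was Col9a2 at -0.25 (-0.39 to -0.10). Above hypoxia were Col11a1 at 0.21 (0.18 to 0.23) and Col14a1 at 0.18 (0.11 to 0.26), and Col11a2 at 0.25 had an interval that reached below 0 (-0.09 to 0.60). Col1a1 was at -0.11 and Col1a2 at -0.08 as deposited. After quantile normalization, where only rank counts, both were at 0.00.

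The library given the natural hormone, at its own dose, was also set against hypoxia alone. None of the 16 was at least 1.5-fold higher (0.507% of all rows) or lower (0.53%), and the median was 0.04 against 0.00 for all rows, with 12 genes above 0 (50.3% of all rows) and 4 below (49.6%). Relative to genes of similar genomic span that median was -0.01, with 6 genes above 0. Col8a1 came nearest, 1.45-fold higher (0.54, 0.46 to 0.62), then Col11a1 at 0.44 (0.42 to 0.46). On the other side Col9a2 was at -0.47 (-0.62 to -0.32). Col18a1 was level with hypoxia at 0.03 (-0.02 to 0.08), in a library given 10 nM where In-Cl and DPN were given 0.1 µM. Col1a1 was at -0.11 and Col1a2 at -0.06 as deposited. By rank, after quantile normalization, they were at 0.045 and 0.23.

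**Figure D4:**
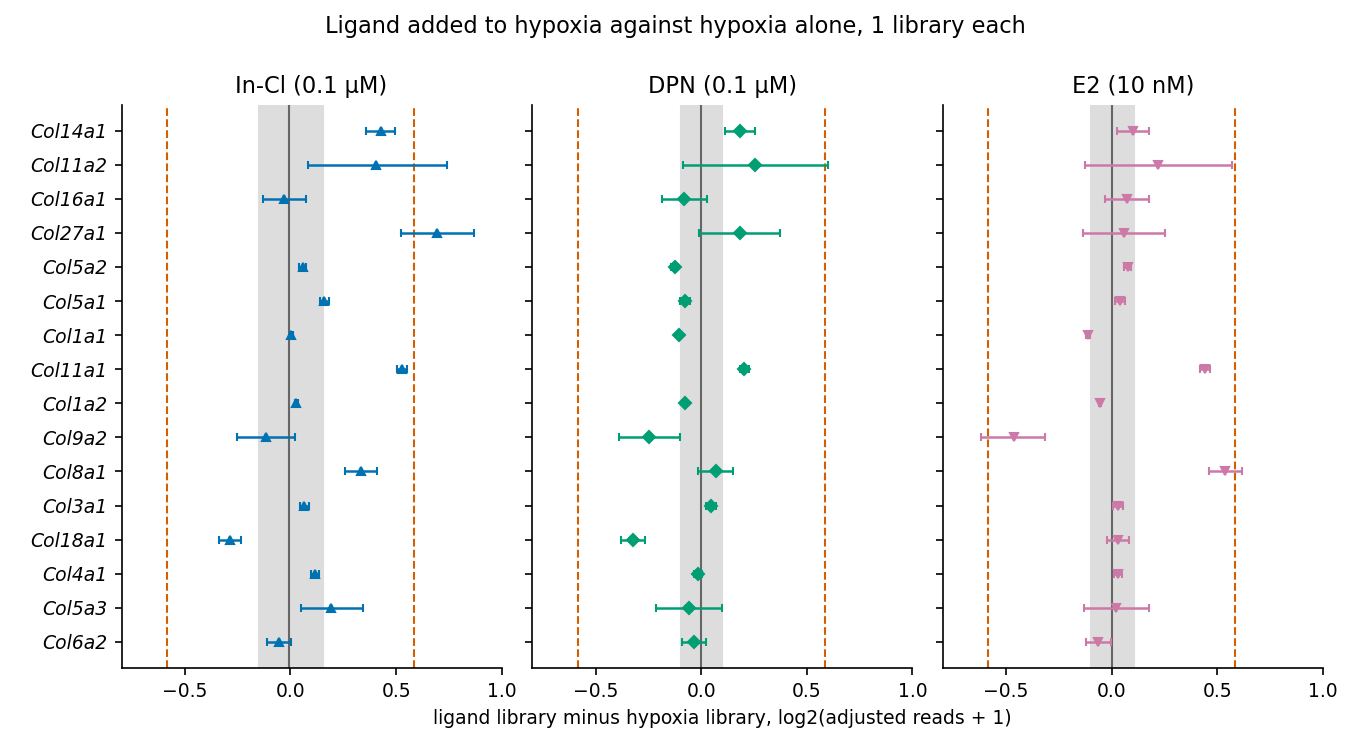
Difference between each ligand library and the hypoxia library (horizontal axis, log2 scale) for the 16 collagen chain genes in the order of their hypoxia difference, with 95% counting intervals, the middle 50% of all rows in grey and 1.5-fold dashed. Only Col27a1 with In-Cl (0.69) lies beyond 1.5-fold; Col8a1 with E2 (0.54) and Col11a1 with In-Cl (0.53) come next.

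Collagen XI shares its fibrils and some of its molecules with collagen V, so the chains can be read against each other inside a library. In hypoxia against control the differences of Col11a1 and Col5a2 were apart by little, -0.065 (-0.09 to -0.04). Against hypoxia, the difference of Col11a1 exceeded that of Col5a2 by 0.47 (0.44 to 0.50) with In-Cl, by 0.33 (0.30 to 0.36) with DPN and by 0.37 (0.34 to 0.39) with E2. These ratios use the same hypoxia library and are not independent.

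In-Cl and DPN were given at the same dose, so their libraries can be set against each other. Of the 16 genes 15 were above 0, that is higher with In-Cl, and 1 below, against 48.3% and 51.5% of all rows, and the median difference was 0.14, against -0.01 for all rows. No gene was 1.5-fold apart in either direction (0.947% of all rows were higher with In-Cl and 0.316% lower). Col27a1 was the most different at 0.51 (0.35 to 0.68), then Col11a1 at 0.32 (0.30 to 0.34), Col8a1 at 0.26 (0.19 to 0.34) and Col5a3 at 0.25 (0.10 to 0.40). Col18a1, which was below hypoxia with both, did not differ detectably between them (0.04, -0.02 to 0.09). Col6a2 was the 1 gene below 0, at -0.02 (-0.08 to 0.04). Relative to genes of similar span the median was 0.135, with 13 of 16 above 0.

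Few genes around the chains were 1.5-fold apart between a ligand library and hypoxia. At least 1.5-fold higher with In-Cl than in hypoxia were Itga1 (0.76), a collagen-binding integrin chain, Fmod (0.64), a small proteoglycan of fibrils, and Klhl12 (0.64), an adaptor for large procollagen carriers, 1 gene each among 6 receptors, 7 partners and 7 export genes, where 1.78% of all rows were higher. In the 4 lists of folding, propeptide removal and cross-linking, breakdown and regulators the In-Cl library had 0 in both directions, and 0.586% of all rows were lower. For DPN, where 0.428% of all rows were higher and 0.406% lower, and for E2, where 0.507% and 0.53% were, all 7 lists had 0. Itga1 was also 1.5-fold higher with In-Cl than with DPN (0.60).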

How the data were processed

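The 5 RNA libraries of rat vascular smooth muscle cells were made from Trizol-extracted total RNA by the SMARTer Stranded RNA-Seq chemistry, per the labels' protocols. The authors deposited log2 values, which behave as log2(adjusted reads + 1). The submitters' processing notes name TopHat, edgeR and rn6 without a role; their versions, the counter, the annotation and strand use are, in the sources used here, not given. The value of 1 read was found from the steps of low values (up to 2.5 reads): 0.832 in the control library and 1.03 under hypoxia alone, then 0.987 after In-Cl, 1.06 after DPN and 1.09 after E2. Among these values, those within 0.2 read of a whole step made up 89.0% in the control and at least 99.1% elsewhere. No count model was fitted, since the tables hold log2 values and each group has 1 library. Intervals came from approximate reads (exact Clopper-Pearson; Wilson for shares; a Poisson approximation for ratios of 2 chains), in Python 3.11.15 with scipy 1.17.1. The steps and folds were tested on simulated data. The detected chains of collagens I, III, IV, V, VI and VIII, the top gene of each class and genes 1.5-fold apart are given in full. In each pathway list the genes 1.5-fold apart are named, or the highest and lowest. The members, lists and alternatives were chosen with earlier results of these data known. The alternatives were another fold, scaling, filter or pseudocount, raised low values, summed rows and another hypoxic library. Genomic spans matched for 98.7% of rows and all 16 collagen genes.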

Additional observations from a re-analysis of the deposited data

How the results depend on the processing

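Each value rests on 1 library per condition, so no library could be left out of a group. No paired analysis was possible because each group holds 1 library. Depth limits the 9 genes with a mean under 100. For hypoxia against control, the median of 0.26 was 0.32 after median centring, 0.0722 after quantile normalization and, with In-Cl, DPN or E2 in place of hypoxia, 0.37, 0.19 and 0.30. With those libraries 5, 3 and 6 genes were at least 1.5-fold above the control, against 4 with hypoxia. At 2-fold 0 were higher. With no filter on low values 8 were higher and 1 was lower, in place of 4 and 0. The calls added without the filter come from the 9 genes with a mean under 100. Shares of all rows are not given for the alternatives in this paragraph. For In-Cl against hypoxia, the median of 0.09 was 0.0665 after median centring, 0.20 after quantile normalization and 0.115 with no filter. The count of 1 higher gene was 2 after quantile normalization (Col11a1 joined), 0 at 2-fold, and 3 higher and 2 lower with no filter. With no filter DPN had 2 lower genes, E2 had 2 higher and 2 lower, and In-Cl against DPN had 3 higher and 1 lower, where each count had been 0. Relative to genes in the same quartile of genomic span, an alternative chosen after seeing the data, the hypoxia median was 0.30, the In-Cl median 0.022 with 0 genes higher, and the E2 median -0.0105 in place of 0.04, a change of sign. With a pseudocount of 10 the medians of all 5 comparisons were the same to 2 decimals. Raising values under 3 reads to 3 reads could not change these medians. No gene in them had so few reads, the lowest being Col11a2 in the control with about 106. Summing the rows of a symbol left the counts as they were, since each collagen symbol has 1 row.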

Other observations

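Collagen-like helices also occur in secreted and membrane proteins outside the collagen family. Of 36 such genes, listed after the data were seen, 18 were above 0 in a library and 8 had a mean of at least 100. In hypoxia against control 7 of these 8 were below 0 (55.6% of all rows were), 2 were at least 1.5-fold lower (4.44% of all rows) and 0 higher (5.66%). C1qtnf2, of the C1q and TNF-related secreted family, had 677 adjusted reads in the control library and 354 under hypoxia alone, then 309 after In-Cl, 367 after DPN and 372 after E2 (hypoxia difference -0.93, -1.12 to -0.75). Colec12, a scavenger receptor, had 285 in the control library and 174 under hypoxia alone, then 180 after In-Cl, 185 after DPN and 201 after E2 (-0.71, -0.995 to -0.45). For both genes the control lay above all 4 hypoxic libraries. Emilin1, an elastic fibre protein, was at -0.27 (-0.35 to -0.18) and the scavenger receptor Scara5 at 0.10 (-0.12 to 0.32).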
